A study of Mus musculus with 12 samples.

Results

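The Dlk1-Meg3 cluster is an imprinted region of mouse chromosome 12, and its 6 genes were followed here through liposarcomas and white fat. Dlk1, Rtl1 and Dio3 encode proteins, and Meg3, Rian and Mirg are long noncoding RNAs. The members were the rows of an expression table that carry 1 of these 6 names, alone or in a comma-joined name: 7 of 37750 rows. Of these, 6 lie on chromosome 12 and 1 is a second copy of Rian on an assembly patch, which was listed at 0 in every library. Meg3, Rian and Mirg stand in joined rows with small RNA genes that lie inside them, so each of these values belongs to the row as a whole. The genes were chosen with their levels in tumours and fat already known, so those levels are described below without a test. They were selected on the difference between the groups in these same libraries, and nothing is supported with it.

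All animals were Ad/NICD mice on a 129 x C57BL/6 background. Their adipocytes carry an active part of the Notch1 receptor, its intracellular domain; no source used here names the promoter behind it. The liposarcoma group (LPS) held 8 libraries from tumours of animals aged 11, 9, 10, 12, 11, 9, 11 and 10 months (LPS 1 to LPS 8). The white adipose tissue group (WAT) held 4 libraries from animals 3 weeks old. Both groups carry the transgene, so no library here is from a mouse without it, and age and tissue differ together between the groups and cannot be told apart. Ribosomal RNA was removed from total RNA before library making, so transcripts without a poly(A) tail can be counted. Values are FPKM, fragments scaled to the length of the transcript and to the mapped fragments of the library. The labels call the libraries biological replicates.

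In this region the 2 parental chromosomes are used differently. In mouse, Dlk1, Rtl1 and Dio3 are expressed mainly from the paternal copy, and Meg3, Rian and Mirg from the maternal copy, under the control of a methylated region between Dlk1 and Meg3. DLK1 is a transmembrane protein with epidermal growth factor repeats, related to Notch ligands, that holds back the differentiation of preadipocytes into fat cells. The maternal noncoding RNAs run in the same direction one after the other and host many miRNAs and C/D box small nucleolar RNAs.

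The table holds no fragment totals, and the sum of FPKM ran from 771665 to 996090 per library. From the low values of 916 single-transcript genes, 1 fragment on a transcript of 2 kb was worth about 0.0448 FPKM in the shallowest library (LPS 1) and 0.0164 FPKM in the deepest (WAT 1). LPS 5 was unlike the other libraries. It had 361556 FPKM of the predicted gene Gm10800, whose highest value elsewhere was 3340 FPKM, and 914 of 1760 olfactory and vomeronasal receptor rows were above 0, against 80 to 181 elsewhere. Its median ratio to the geometric mean of all libraries was 0.814, so most of its genes read low as deposited. The sum of 10 adipocyte markers was 81.1 to 2123 FPKM in LPS and 12268 to 14769 FPKM in WAT, and within LPS it was highest in LPS 1, LPS 3 and LPS 7, at 2123, 1275 and 1112 FPKM, with no more than 172 FPKM in any of the other 5. Fabp4 made up most of the adipocyte sum in LPS 1, LPS 3 and LPS 7, at 2000, 1229 and 1070 FPKM. Plin1 and Lpl were also highest in LPS 1, and Lipe and Pnpla2 in LPS 7. The other adipocyte markers, Adipoq, Lep, Cidec, Cfd and Retn, were highest in LPS 5. All 8 pericyte markers were higher in tumours, with sums of 3572 to 7842 FPKM in LPS and 221 to 238 FPKM in WAT. At least 1 FPKM was reached by 4 of the 10 adipocyte markers in all tumours and by all 10 in all fat libraries. The sum of 10 adipose progenitor markers was 157 to 286 FPKM in LPS and 402 to 576 FPKM in WAT. These markers did not move together: of 9 tested, 6 were lower, 2 not called and 1 higher. The higher marker was Cd248, at a mean of 125 FPKM in LPS and 19.6 FPKM in WAT. Of 10 neuronal markers in the table, 8 failed the filter on low values described below. Of the 2 tested, Map2 was higher, at a mean of 68.8 FPKM in LPS and 1.68 FPKM in WAT. Syp, at means of 1.12 and 2.44 FPKM, was not called.

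Sequences of the region show what its rows carry. The 300 bases around the start of each gene, from 250 bases before it to 50 after it, were taken from RefSeq on build GRCm38.p6 for the genes at the start of the paternal and maternal transcripts and at the far end. Capitals mark matches, on either strand, to TGACGTCA (the cAMP response element, CRE), TATAAA (the TATA box) or TGGGAA (the core of the motif bound by RBPJ, the DNA-binding partner of Notch).
Dlk1 (chr12:109452573-109452872, plus strand): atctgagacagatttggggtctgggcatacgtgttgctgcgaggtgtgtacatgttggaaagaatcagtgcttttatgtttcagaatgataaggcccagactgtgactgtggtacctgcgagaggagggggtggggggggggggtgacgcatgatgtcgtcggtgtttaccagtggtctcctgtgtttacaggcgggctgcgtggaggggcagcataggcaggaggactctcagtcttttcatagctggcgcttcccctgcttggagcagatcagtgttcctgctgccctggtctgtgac
Meg3 (chr12:109540746-109541045, plus strand): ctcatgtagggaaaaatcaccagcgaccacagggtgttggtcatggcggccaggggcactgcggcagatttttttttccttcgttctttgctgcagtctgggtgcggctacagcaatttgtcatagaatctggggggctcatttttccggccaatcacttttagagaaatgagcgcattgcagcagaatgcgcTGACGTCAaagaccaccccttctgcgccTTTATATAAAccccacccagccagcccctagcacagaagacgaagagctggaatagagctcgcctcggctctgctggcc
Dio3 (chr12:110278980-110279279, plus strand): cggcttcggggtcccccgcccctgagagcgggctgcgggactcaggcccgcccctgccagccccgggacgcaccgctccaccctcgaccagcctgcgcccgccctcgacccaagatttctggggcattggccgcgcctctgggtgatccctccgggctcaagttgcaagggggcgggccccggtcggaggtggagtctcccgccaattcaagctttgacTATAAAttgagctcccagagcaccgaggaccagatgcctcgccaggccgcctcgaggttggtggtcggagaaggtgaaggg
The Dlk1 window held none of the 3 motifs. The Meg3 window held 1 CRE and 2 TATA matches, 1 on each strand, that overlap each other. None of the windows printed held the RBPJ core, but those of the region left unprinted did: a second Meg3 start (chr12:109545148-109545447) held 2 matches, and the Rian and Mirg windows 1 each. The Dio3 window held 1 TATA match and 25 CpG dinucleotides, against 13 for Meg3 and 9 for Dlk1; 18.4% of all RefSeq windows of this length held as many as Dio3. Of 32851 such windows, 1.79% held the CRE, 13.6% the TATA letters and 25.6% the RBPJ core. The motifs were picked with these sequences in view, and a match describes letters, not binding.

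RefSeq placed 58 miRNA hairpins between Dlk1 and Dio3, with 114 mature sequences and 104 different seeds (bases 2 to 8, the part that pairs with targets). The joined Mirg row names 9 of the hairpins and the Meg3 row 2, and all 11 were in RefSeq. The sequences below are examples of what the noncoding rows host, with the seed in capitals. The first comes from Meg3 and the next 5 from Mirg. The 2 after those lie opposite Rtl1, to which their hairpins are antisense.
mmu-miR-770-5p: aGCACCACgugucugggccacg
mmu-miR-382-5p: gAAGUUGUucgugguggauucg
mmu-miR-134-5p: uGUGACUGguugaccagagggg
mmu-miR-377-3p: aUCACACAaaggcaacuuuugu
mmu-miR-369-3p: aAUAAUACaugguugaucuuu
mmu-miR-410-3p: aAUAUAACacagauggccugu
mmu-miR-433-3p: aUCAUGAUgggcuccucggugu
mmu-miR-127-3p: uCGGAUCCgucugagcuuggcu
Most seeds of the region were used once, and 9 were shared by mature sequences of different names. The seed of mmu-miR-3070-5p also recurred, since that sequence was listed under the same name at Mir3070a and Mir3070b. The pairs shown next, from separate hairpins of the region, share a seed.
mmu-miR-410-5p: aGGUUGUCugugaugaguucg
mmu-miR-494-5p: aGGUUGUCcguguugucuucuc
mmu-miR-379-3p: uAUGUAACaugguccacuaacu
mmu-miR-411-3p: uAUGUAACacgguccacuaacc

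Dlk1 was the member whose groups did not overlap. It lies at chr12:109452823-109463336 on the plus strand (GRCm38; ENSMUSG00000040856.17, protein coding). Its level was 183, 319.7, 24.7, 247, 109.95, 94.1, 71.6 and 333 FPKM in LPS 1 to LPS 8, against 10.4, 6.86, 4.18 and 12.1 FPKM in WAT 1 to WAT 4. Every tumour was above every fat library, LPS 8 and LPS 2 were highest and LPS 3 was lowest among tumours. The means were 173 ± 117 FPKM in LPS (SD, n = 8) and 8.40 ± 3.57 FPKM in WAT (SD, n = 4), a log2 difference of 3.91 ± 0.60 (SE) on the log2(FPKM + 1) scale. Of the 14821 rows that reached 1 FPKM in 4 or more libraries, 11.8% also had every tumour above every fat library; since this contrast chose the members, nothing is read from 1 of 6 doing so. In bulk tissue, fewer cells that express a gene and less RNA per cell cannot be told apart.

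**Figure D1:**
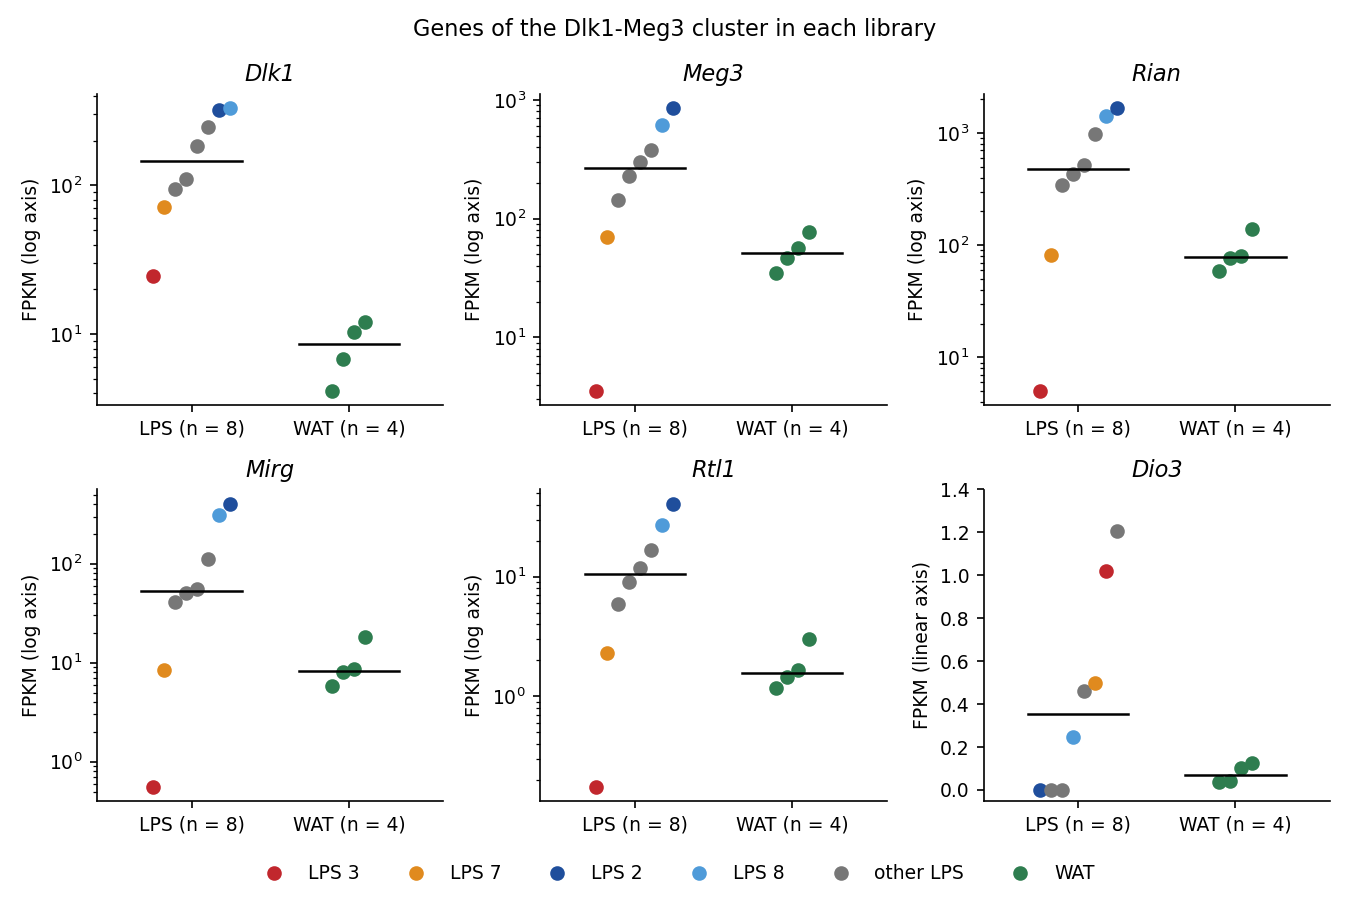
FPKM of the 6 genes, 1 point per library, LPS (n = 8) left and WAT (n = 4) right, with the group median as a line; the axis is logarithmic except for Dio3. Dlk1 is above WAT in all tumours, whereas Meg3, Rian, Mirg and Rtl1 lie below the WAT range in LPS 3 and inside it in LPS 7.

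Meg3, the first of the maternal noncoding RNAs, was high in most tumours and low in 1 of them. It lies at chr12:109541001-109571726 on the plus strand (ENSMUSG00000021268.17). Its row read 300.0, 861, 3.56, 144, 378, 229, 69.8 and 618 FPKM in LPS 1 to LPS 8, against 77.8, 35.1, 46.5 and 56.3 FPKM in WAT 1 to WAT 4. Thus 6 tumours were above every fat library, LPS 7 was inside the WAT range, and LPS 3 was 9.86 times lower than the lowest fat library and 19.6 times lower than the next tumour. The means were 326 ± 289.6 FPKM in LPS (SD, n = 8) and 53.9 ± 18.1 FPKM in WAT (SD, n = 4), with a log2 difference of 1.68 ± 1.11 (SE). Without LPS 3 that difference was 2.42.

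Rian, the second noncoding RNA of the chain and a host of C/D box small nucleolar RNAs, was the most abundant member in tumours. Its row at chr12:109603882-109661716 (plus strand; ENSMUSG00000097451.10) ran from 5.08 FPKM in LPS 3 to 1684 FPKM in LPS 2, with a median of 475 FPKM, against 141, 58.8, 76.5 and 79.8 FPKM in WAT 1 to WAT 4. LPS 8 (1426 FPKM) and LPS 5 (989 FPKM) followed LPS 2, and LPS 7, at 82.3 FPKM, fell inside the WAT range. The log2 difference was 1.88 ± 1.24 (SE), and 2.69 without LPS 3.

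Mirg, the last noncoding RNA and the host of a large miRNA group, had the widest fold span among tumours of the members detected in all of them. Its row at chr12:109729764-109749460 (plus strand; ENSMUSG00000097391.8) ran from 0.561 FPKM in LPS 3 to 405 FPKM in LPS 2, a 721-fold span, with a median of 52.8 FPKM, against 18.2, 5.78, 8.04 and 8.61 FPKM in WAT 1 to WAT 4. LPS 2 and LPS 8 (310.2 FPKM) stood above the other tumours, the next being LPS 5 at 113 FPKM. The log2 difference was 2.202 ± 1.22 (SE), and 2.91 without LPS 3.

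Rtl1, a protein gene derived from a retrotransposon and needed in the mouse placenta, followed the noncoding RNAs. It lies at chr12:109589193-109600330 on the minus strand (ENSMUSG00000085925.3), between Meg3 and Rian. Its level was 11.9, 40.7, 0.175, 5.93, 16.6, 9.07, 2.30 and 27.2 FPKM in LPS 1 to LPS 8, against 3.01, 1.17, 1.45 and 1.66 FPKM in WAT 1 to WAT 4. The tumours stood in the same order as for Meg3, Rian and Mirg, with LPS 3 below every fat library and LPS 7 inside their range. The log2 difference was 1.81 ± 0.77 (SE), and 2.24 without LPS 3. Maternal transcripts cross this locus on the plus strand, and no source used here says whether fragments were counted by strand, so RNA from Rtl1 and RNA antisense to it cannot be told apart in this row.

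Dio3, the deiodinase that inactivates thyroid hormone, was low in tumours and close to the detection limit in fat. It lies at chr12:110279068-110281097 on the plus strand (ENSMUSG00000075707.5), far from the rest. It was listed at 0.463, 0, 1.02, 0, 1.21, 0, 0.499 and 0.245 FPKM in LPS 1 to LPS 8, against 0.0424, 0.124, 0.0364 and 0.101 FPKM in WAT 1 to WAT 4. The 5 tumours with a value were above every fat library and the 3 listed at 0 were below, so the groups overlapped. At a length of 2.03 kb these levels stand for about 38.3 fragments in LPS 3, 38.1 in LPS 5, 23.9 in LPS 7, 10.5 in LPS 1 and 9.48 in LPS 8, against 1.29 to 4.01 in the WAT libraries. A listed 0 can be a failed estimate, and the highest value came from LPS 5, the library that stood apart; without it the highest tumour was LPS 3. Dio3 failed the filter of 1 FPKM in 4 libraries and entered no test, and the other 5 members passed it. The row of Dio3os and Mir1247, the transcripts that start beside Dio3 on the other strand, was likewise low: 1.10 FPKM in LPS 3, 0.539 FPKM in LPS 7 and at most 0.170 FPKM in the other tumours, against 0.0631 to 0.346 FPKM in WAT.

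The tumours differed far more from each other in these genes than in most of the table. Over the 8 tumours the SD of log2(FPKM + 1) was 2.68 for Rian, 2.63 for Mirg, 2.39 for Meg3, 1.67 for Rtl1 and 1.26 for Dlk1, against a median of 0.35 over the 13280 rows that reached 1 FPKM in 4 or more tumours. Ranked by that SD, Rian was row 41, Mirg 45, Meg3 66, Rtl1 171 and Dlk1 367. Much of this spread came from a single tumour: without LPS 3 the SD was 1.48 for Rian, 1.85 for Mirg, 1.23 for Meg3, 1.23 for Rtl1 and 0.88 for Dlk1. The genes just outside the cluster had lower SDs, 0.83 for Begain, upstream of Dlk1, and 0.23 for Ppp2r5c, downstream of Dio3. Such spread was not particular to the cluster. Among imprinted genes of other loci, Peg10 had an SD of 2.60 (row 48, ahead of Meg3), Sgce 1.81 (row 147, ahead of Rtl1), Mest 1.46 (row 253, ahead of Dlk1) and Plagl1 1.25 (row 382).

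Meg3, Rian, Mirg and Rtl1 moved almost as a single unit across the tumours. Their order from highest to lowest was the same for all 4: LPS 2, LPS 8, LPS 5, LPS 1, LPS 6, LPS 4, LPS 7, LPS 3. Over the 8 tumours on the log2(FPKM + 1) scale, Pearson's r was 0.994 for Meg3 and Rian, 0.971 for Meg3 and Mirg and 0.967 for Meg3 and Rtl1, each with Spearman's rho of 1. With the 2 tumours farthest from the median of Meg3 left out (LPS 3 and LPS 7), these r were 0.971, 0.960 and 0.998 over 6 tumours. The points share their library, depth and mapping, and 1 tumour is 1 library, so these values describe the libraries at hand and carry no test.

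**Figure D2:**
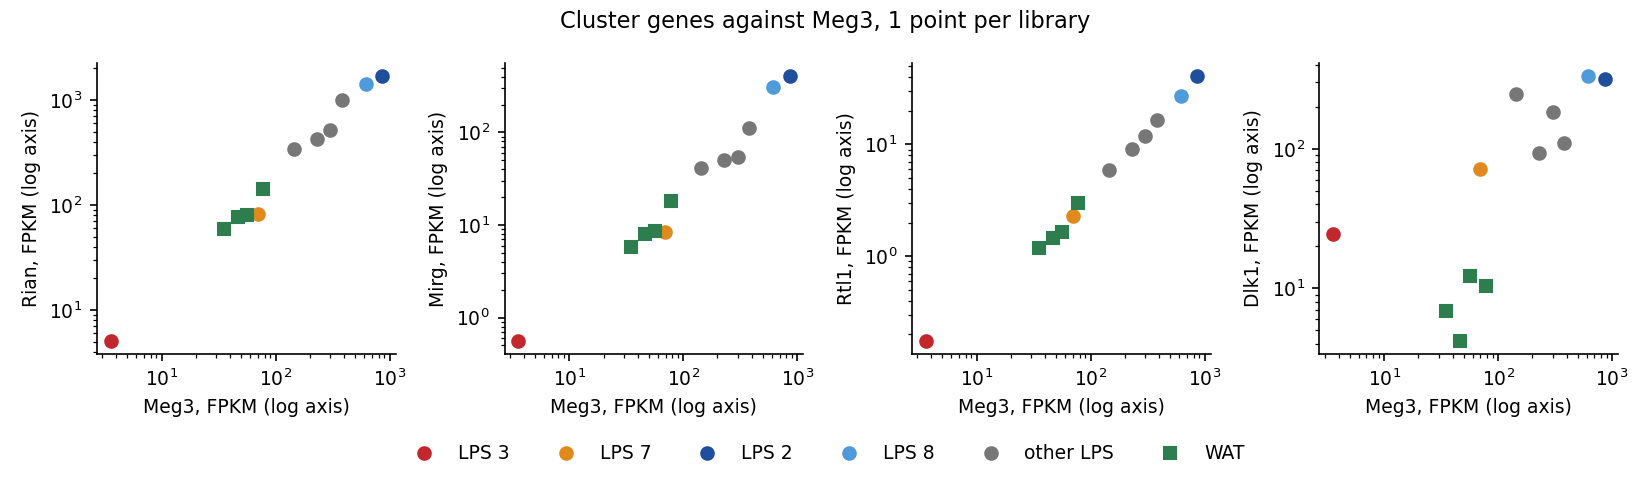
FPKM of Rian, Mirg, Rtl1 and Dlk1 (vertical) against Meg3 (horizontal), both logarithmic, 1 point per library; circles are LPS and squares WAT. Rian, Mirg and Rtl1 line up with Meg3 over the whole range, and Dlk1 is lower in WAT (4.18 to 12.1 FPKM) than in LPS 7 (71.6 FPKM), a tumour inside the WAT range of Meg3.

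Ratios within a library do not depend on how libraries are scaled, and ratios to Meg3 spanned less among the tumours than ratios to Dlk1. Rtl1 over Meg3 was 0.0330 to 0.0491 in LPS and 0.0295 to 0.0387 in WAT, although Meg3 itself spanned 242-fold among the tumours. Rian over Meg3 was 1.18 to 2.61 in LPS and 1.42 to 1.81 in WAT. Mirg over Meg3 was wider, 0.121 to 0.502 in LPS and 0.153 to 0.234 in WAT, with the highest ratios in LPS 8 (0.502) and LPS 2 (0.470). Meg3 over Dlk1 was not constant: 1.64, 2.69, 0.144, 0.583, 3.44, 2.44, 0.975 and 1.86 in LPS 1 to LPS 8, against 7.47, 5.12, 11.1 and 4.63 in WAT 1 to WAT 4. Every tumour was below every fat library in that ratio, and LPS 3 was lowest at 0.144. The groups overlapped in the other ratios to Dlk1 that were computed. Rian over Dlk1 was 0.206 to 9.00 in LPS and 6.58 to 18.3 in WAT, and Rtl1 over Dlk1 was 0.00709 to 0.151 in LPS and 0.137 to 0.346 in WAT, with LPS 5 the tumour inside the WAT range in both.

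**Figure D3:**
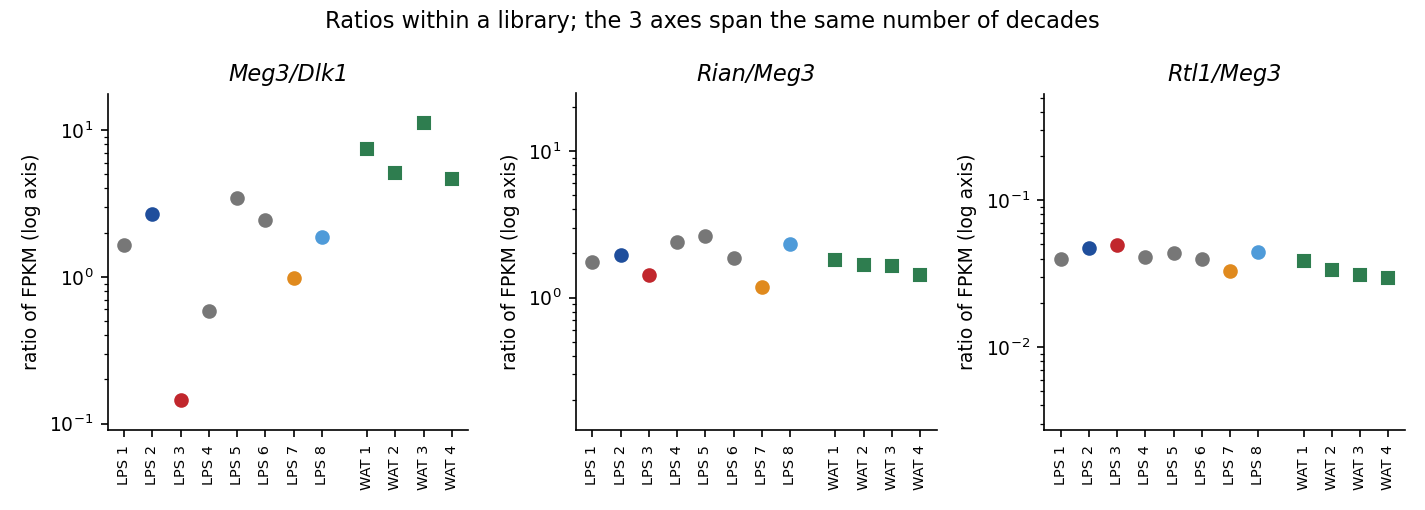
Ratio of FPKM within each library for Meg3 over Dlk1, Rian over Meg3 and Rtl1 over Meg3, on logarithmic axes of equal span; LPS left, WAT right. The first ratio spans 0.144 to 3.44 in LPS and 4.63 to 11.1 in WAT, whereas Rtl1 over Meg3 keeps within 0.0295 to 0.0491 in all 12 libraries.

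Dlk1 tracked the others more loosely. Its r over the 8 tumours was 0.882 with Meg3 (rho 0.81), 0.888 with Rian, 0.898 with Mirg and 0.867 with Rtl1. Without LPS 3 and LPS 8, the tumours farthest from its median, these r were 0.617, 0.636, 0.687 and 0.633 over 6 tumours. LPS 4, for example, was the third highest tumour for Dlk1 (247 FPKM) and the sixth for Meg3 (144 FPKM). Dio3 ran the other way from Dlk1 (r of -0.63 over 8 tumours and -0.48 over 6), with 3 of the 8 tumours listed at 0 for Dio3.

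Of the other long noncoding rows between Dlk1 and Dio3, Gm26945 and B830012L14Rik repeated the pattern of Meg3. Gm26945, a predicted noncoding gene inside the span of Rian (chr12:109640341-109642351), read 24.8, 98.5, 0.323, 16.2, 58.0, 24.1, 3.55 and 99.98 FPKM in LPS 1 to LPS 8, against 5.51, 3.77, 3.84 and 2.71 FPKM in WAT 1 to WAT 4. B830012L14Rik, a noncoding gene between Rian and Mirg (chr12:109695586-109702587), ran from 0.0885 FPKM in LPS 3 to 36.2 FPKM in LPS 2, against 1.12 to 2.56 FPKM in WAT. Both were lowest in LPS 3 and below every fat library there. Gm26945 overlaps Rian on the same strand, so the fragments of these rows could be shared.

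**Figure D4:**
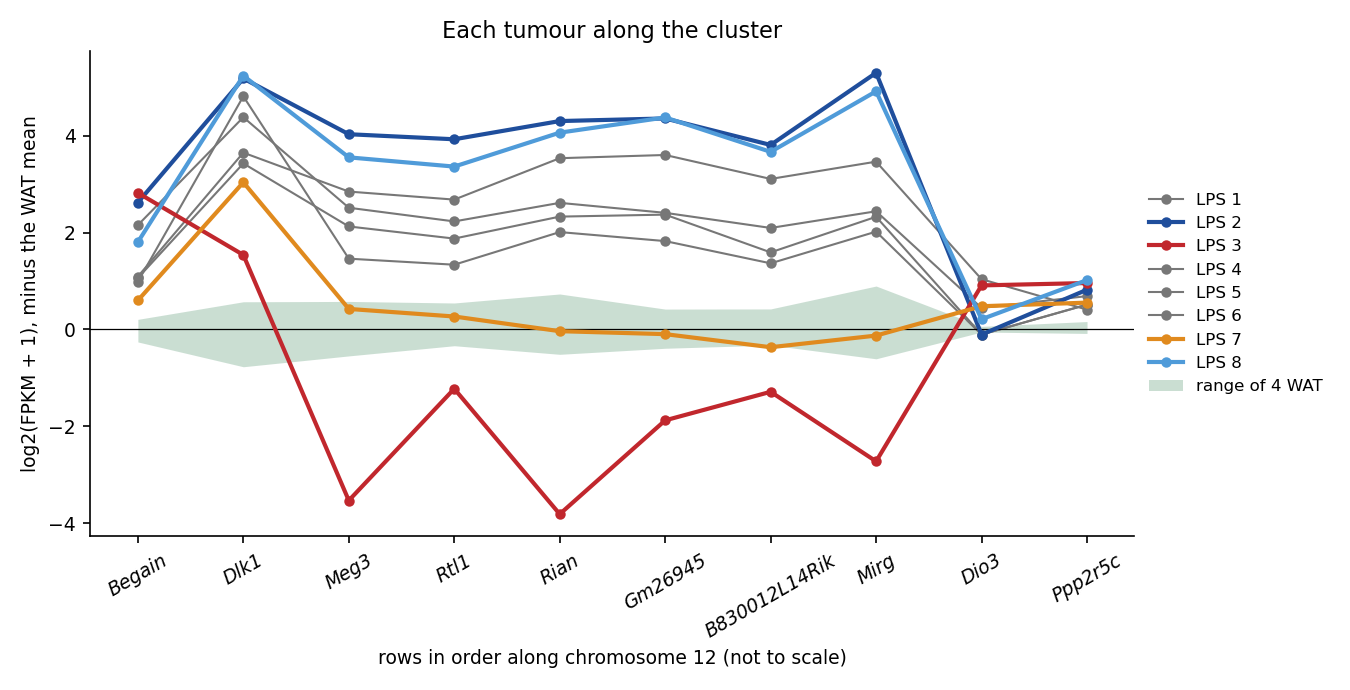
log2(FPKM + 1) of each tumour minus the WAT mean (vertical) for 10 rows in their order along chromosome 12 (horizontal, not to scale); the band is the range of 4 WAT libraries. LPS 3 is above the band at Begain and Dlk1, below it for all 6 rows from Meg3 to Mirg, and above it again at Dio3 and Ppp2r5c.

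The rows of small RNAs themselves held almost nothing. Of 61 rows that carry a single miRNA or small nucleolar RNA name between Dlk1 and Dio3, 49 were at 0 in every library (values under 1e-06 FPKM counted as 0) and 6 of the other 12 were above 0 in just 1 library. Tumours LPS 2 and LPS 8, the highest for the hosts, had 7 such rows each above 0, LPS 6 had 3, LPS 1 and LPS 5 had 1 each, and LPS 3, LPS 4 and LPS 7 had none; WAT 1 had 1 and the other WAT libraries none. The most abundant were DQ267102 (3886 FPKM in LPS 2 and 3353 FPKM in LPS 8), Gm22205 (4515 FPKM in LPS 2), Mir493 (2204 FPKM in LPS 6), Mir543 (1653 FPKM in LPS 2) and Mir323 (472 FPKM in LPS 8). All 5 were at 0 in every WAT library. A few fragments on a gene this short give a large FPKM, and the library kit does not select mature miRNAs, so these rows say nothing of mature miRNA levels.

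Beyond the region, the single-name rows most like each member over the 8 tumours, by Pearson's r of log2(FPKM + 1), were few and mixed. For Dlk1 they were Abca8a (0.974), Tram1l1 (0.971), Slitrk6 (0.955), Ccdc112 (0.948) and Opcml (0.944). For Meg3 they were P2rx1 (0.968), Gm26945 (0.963), Cers6 (0.945), B830012L14Rik (0.934) and Timm13 (0.931). Gm26945 and B830012L14Rik are noncoding rows of the region described above. Rian had Gm26945 (0.979), P2rx1 (0.971), B830012L14Rik (0.953), Cers6 (0.947) and Dnajc2 (0.936). Mirg had Gm26945 (0.993), B830012L14Rik (0.983), Timm13 (0.957), Pgap1 (0.957) and Gm27000 (0.953), and Rtl1 had Gm26945 (0.990), B830012L14Rik (0.987), Timm13 (0.981), Gm27000 (0.973) and Lrpprc (0.969). With members and joined rows included, Rian ranked 1, Mirg 2 and Rtl1 4 of 13279 rows by r to Meg3, with P2rx1 ahead of Rtl1. By r to Rtl1, Timm13 and Gm27000 stood ahead of Rian and Meg3. Mirg, the member most like Dlk1, ranked 24 by r to Dlk1. These r describe 8 libraries and were the highest of all rows compared.

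Skeletal muscle markers differed widely among the fat libraries. Of 13 in the table, 11 reached 1 FPKM in at least 1 tumour, and 11 in at least 1 fat library but 3 in all of them. Their sum was 13.1 to 679 FPKM in LPS and 2493, 23.4, 317 and 2027 FPKM in WAT 1 to WAT 4. In WAT the order of this sum, WAT 1, WAT 4, WAT 3, WAT 2, was also the order of Meg3, Rian, Mirg and Rtl1. Among tumours LPS 8 had the highest sum (679 FPKM) and LPS 2, the highest tumour for Meg3, had 28.3 FPKM. The part of muscle RNA in the WAT levels was not tested. The tumours with the lowest Meg3 rows, LPS 3 and LPS 7, were among the 3 with the highest adipocyte marker sums, which were mostly Fabp4. LPS 1, the highest of the 3, had 300.0 FPKM of Meg3. Adipoq, Lep, Cidec, Cfd and Retn were highest in LPS 5, which had 378 FPKM of Meg3. The part of residual fat in the levels was not tested.

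The members did not follow the age of the animals in a way that could be detected. The slope within LPS, from limma over 13280 rows, was 0.05 ± 0.40 log2 per month for Dlk1, -0.32 ± 0.75 for Meg3, -0.27 ± 0.85 for Rian, -0.56 ± 0.81 for Mirg and -0.43 ± 0.51 for Rtl1 (± SE, n = 8; limma adjusted p = 0.9998 for each). No row of the table was called at an adjusted p under 0.05 by limma (0% of 13280), nor with plain empirical Bayes, and 228 had an unadjusted p under 0.05. The 2 tumours at 9 months, LPS 2 and LPS 6, had 861 and 229 FPKM of Meg3, and the 2 at 10 months, LPS 3 and LPS 8, had 3.56 and 618 FPKM.

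Imprinted genes of other loci, which did not enter the choice of the members, were read from the same fit of all rows. These genes and the other lists below were chosen with earlier results of these data known. Their calls are therefore no independent support. Across all rows, 18.9% of 14821 were called higher in LPS and 27.0% lower (limma, Benjamini-Hochberg adjusted p under 0.05), with a median log2 difference of -0.05. Of 15 tested genes that are usually paternally expressed, 1 was higher, 5 were lower and 9 were not called, with a median of -0.26. Airn, the noncoding RNA that silences Igf2r, rose to 91.8 ± 40.3 FPKM in LPS, against 12.3 ± 3.92 FPKM in WAT (SD, n = 8 and 4; log2 difference 2.70, limma adjusted p = 3.67e-05). Airn and Igf2r were listed at the same span of the same chromosome, so the fragments of these rows could be shared. Nnat, a membrane protein of fat and brain, averaged 3.88 ± 1.31 and 299.2 ± 174 FPKM in LPS and WAT (limma adjusted p = 5.56e-09), and Peg3, a zinc-finger gene, 0.428 ± 0.335 and 46.8 ± 4.00 FPKM (limma adjusted p = 3.06e-10). Mest, a hydrolase gene linked to fat cell size, was the most abundant gene not called, at 53.2 ± 86.8 and 19.2 ± 6.45 FPKM in LPS and WAT. That LPS mean rests on LPS 2, at 267 FPKM, with 7.83 to 38.8 FPKM in the other tumours; without LPS 2 the log2 difference was 0.15, against 0.61 with it. The count of lower genes was 3 without any 1 of the WAT libraries, and the count of higher genes was 3 without LPS 5 and 2 without LPS 7.

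Of 18 tested genes that are maternally expressed in all or some mouse tissues, 3 were higher, 5 lower and 10 not called, with a median log2 difference of 0.13. The largest increases were in Cd81, a tetraspanin gene (461 ± 97.5 FPKM in LPS and 183 ± 14.6 FPKM in WAT, log2 difference 1.30, limma adjusted p = 6.07e-05), and Tssc4 (24.9 ± 5.21 and 12.1 ± 1.71 FPKM, log2 difference 0.97, limma adjusted p = 0.000293). Among rows with a single name, the largest decreases were in Dcn, the matrix proteoglycan decorin (12.3 ± 11.1 FPKM in LPS and 209 ± 39.0 FPKM in WAT, log2 difference -4.60, limma adjusted p = 0.000219), and Slc22a3, an organic cation transporter (0.117 ± 0.109 and 14.3 ± 4.83 FPKM, log2 difference -3.73, limma adjusted p = 1.96e-09). Gnas, which encodes a G protein subunit, was abundant and not called, at 639.8 ± 233 and 618 ± 30.2 FPKM in LPS and WAT. The count of lower genes was 3 without WAT 1, WAT 2 or WAT 4 and 2 without WAT 3.

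Another imprinted locus was low in LPS 5 and LPS 7, but not in LPS 3. Peg10 and Sgce, paternally expressed neighbours on chromosome 6, read 0.517 and 1.82 FPKM in LPS 5 and 0.162 and 0.324 FPKM in LPS 7, against 26.7 to 91.1 FPKM of Peg10 and 17.0 to 38.8 FPKM of Sgce in the other tumours. In WAT they were 1.96 to 3.32 FPKM and 14.2 to 18.5 FPKM. Peg10 was not called (limma adjusted p = 0.0871), but was without LPS 5 (limma adjusted p = 0.0213) or LPS 7 (limma adjusted p = 0.0155). LPS 3 had the highest levels of both genes, at 91.1 and 38.8 FPKM. The joined row of H19 and Mir675, maternally expressed beside Igf2, was 75.7 FPKM in LPS 2 and between 0.645 and 30.1 FPKM elsewhere among tumours, against 144 to 277 FPKM in WAT. As a joined row it is outside the counts above, and it was lower in the same fit (log2 difference -4.40, limma adjusted p = 0.00116), a larger decrease than that of Slc22a3. Igf2, a growth factor gene, was 0.244 to 9.76 FPKM in LPS, against 20.7 to 24.9 FPKM in WAT.

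**Figure D5:**
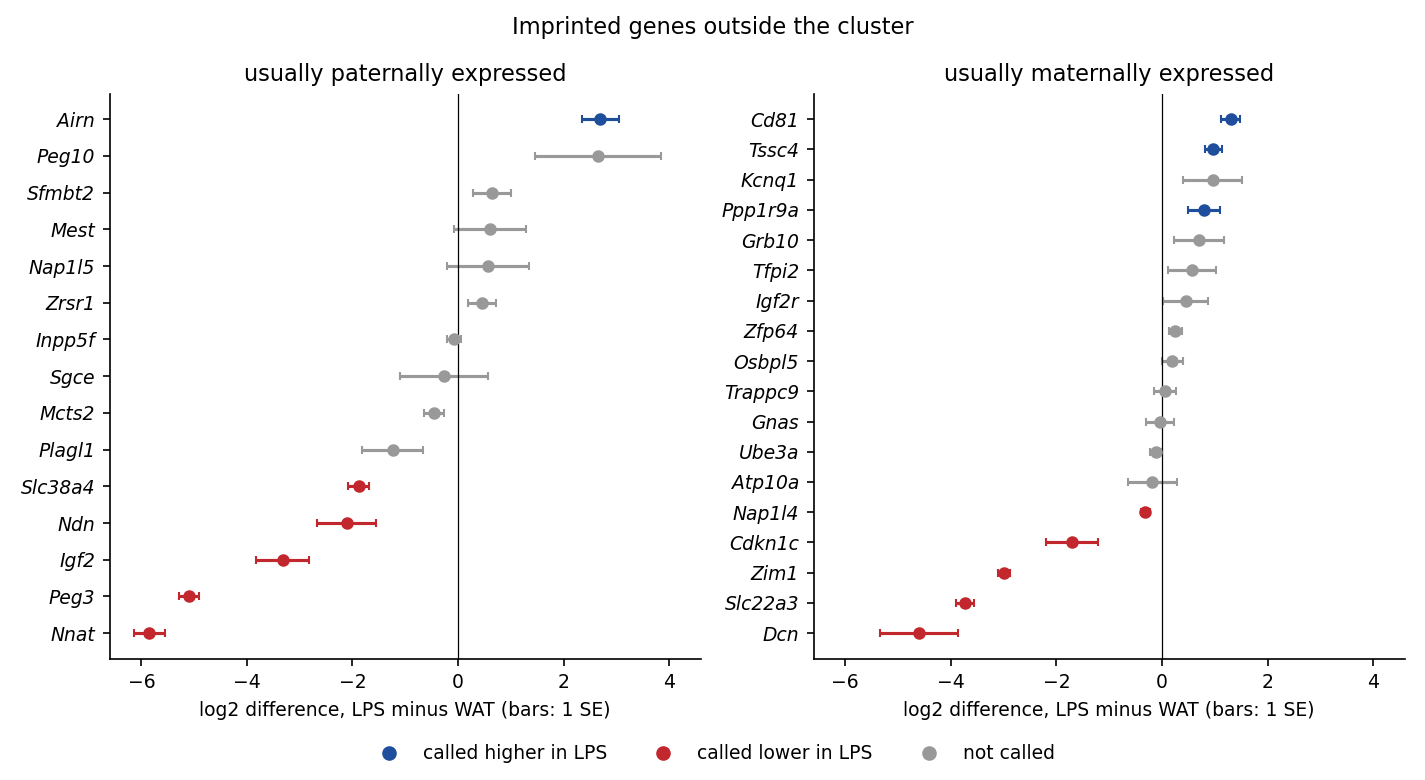
log2 difference, LPS minus WAT, with 1 SE, for tested imprinted genes outside the Dlk1-Meg3 cluster. Of these, 15 are usually expressed from the paternal copy, and 18 from the maternal copy in all or some mouse tissues. Genes called higher, called lower and not called by limma are coloured apart; lower calls reach -5.85 (Nnat) and higher calls 2.70 (Airn).

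Genes on either side of the cluster were mostly not called. Of 17 tested neighbours on chromosome 12, 4 were higher, 1 lower and 12 not called, with a median log2 difference of 0.11. Among all rows, 18.9% were higher and 27.0% lower. Begain, a gene first described at neuronal synapses, read 5.60, 8.12, 9.46, 1.94, 2.16, 2.097, 1.25 and 4.18 FPKM in LPS 1 to LPS 8, against 0.442, 0.240, 0.577 and 0.713 FPKM in WAT 1 to WAT 4 (log2 difference 1.64 ± 0.39 SE, limma adjusted p = 0.00407). LPS 3, the lowest tumour for Meg3, Rian, Mirg and Rtl1, was the highest for Begain. Eml1, a microtubule-binding protein gene, was higher (20.5 ± 5.36 and 8.57 ± 1.498 FPKM in LPS and WAT, limma adjusted p = 0.000302), as was Ppp2r5c, a phosphatase subunit gene (38.0 ± 6.25 and 23.1 ± 1.91 FPKM, limma adjusted p = 0.000739). Degs2, a sphingolipid enzyme gene, was lower (1.89 ± 0.628 and 3.88 ± 0.917 FPKM, limma adjusted p = 0.00584), and Hsp90aa1, a chaperone gene, was not called (73.0 ± 39.9 and 71.3 ± 10.3 FPKM). Eml1 and Degs2 were listed at the same span of the chromosome, with Evl, which was not called, so the fragments of these rows could be shared.

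Among the proteins that release, bind or resemble DLK1 and the factors tied to it in fat cell formation, 5 of 14 tested genes were higher, 5 lower and 4 not called, with a median log2 difference of 0.44. The shares over all rows were 18.9% higher and 27.0% lower. Notch3, a receptor, rose to 210.4 ± 87.3 FPKM in LPS, against 27.2 ± 10.4 FPKM in WAT (limma adjusted p = 1.70e-05). Notch3 is also 1 of the 8 pericyte markers, all of which were higher in LPS, and all 10 adipocyte markers were lower, as was Cebpa; the part of cell makeup in these differences was not tested. Dner, a related transmembrane protein with epidermal growth factor repeats, averaged 5.22 ± 4.51 and 0.101 ± 0.0346 FPKM in LPS and WAT (limma adjusted p = 0.0199; 0.0504 without WAT 4). Cebpa, a driver of fat cell differentiation, fell to 4.77 ± 2.49 FPKM in LPS, against 176.9 ± 10.7 FPKM in WAT (limma adjusted p = 2.43e-08), and Foxo1, a transcription factor of insulin signalling, to 2.80 ± 0.755 FPKM, against 28.1 ± 1.22 FPKM (limma adjusted p = 8.94e-09). Fn1, which encodes the matrix protein fibronectin and binds DLK1, was not called (146 ± 62.7 and 103.6 ± 28.0 FPKM in LPS and WAT). The count of lower genes was 3 without WAT 2 or WAT 4.

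Thyroid hormone genes, the field of Dio3, were lower or not called. Of 17 tested, 12 were lower and 5 not called, with a median log2 difference of -0.76. For comparison, 27.0% of all rows were lower and 18.9% higher. Dio2, the deiodinase that activates the hormone, fell to 0.775 ± 0.624 FPKM in LPS, against 7.74 ± 3.70 FPKM in WAT (limma adjusted p = 4.07e-05). Thrsp, a fat-making gene induced by the hormone, averaged 1.23 ± 0.675 and 937 ± 325 FPKM in LPS and WAT (limma adjusted p = 4.39e-11), and Rxrg, a partner of its receptors, 0.199 ± 0.203 and 12.4 ± 0.928 FPKM (limma adjusted p = 1.10e-09). Ncor1, a co-repressor, was not called (82.4 ± 12.4 and 86.0 ± 5.77 FPKM). Several genes of this list are also high in fat cells, whose marker sum was lower in LPS as given above, and that part was not tested.

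Genes of imprint control and of small RNA processing were mostly not called. Of 20 tested genes of DNA methylation and imprint protection, 3 were higher, 3 lower and 14 not called (median log2 difference 0.05). Over all rows, 18.9% were higher and 27.0% lower. Tet2 and Tet1, which oxidise methylcytosine, were higher at 15.2 ± 3.06 and 4.58 ± 1.35 FPKM in LPS, against 7.21 ± 0.581 and 2.26 ± 0.605 FPKM in WAT (limma adjusted p = 0.000196 and 0.00856). Ctcfl, a relative of the insulator protein CTCF, was lower at 0.0133 ± 0.0248 and 2.63 ± 0.737 FPKM in LPS and WAT (limma adjusted p = 8.64e-08), and Aff3, whose protein binds the control region of this cluster in mouse embryonic stem cells, at 2.59 ± 3.65 and 8.11 ± 3.41 FPKM (limma adjusted p = 0.0303; between 0.0504 and 0.0944 without LPS 2, LPS 4, LPS 6 or any 1 WAT library). Ehmt2, a histone methyltransferase gene, was not called (50.8 ± 11.5 and 38.1 ± 2.21 FPKM) but was without LPS 5 (limma adjusted p = 0.000734), with quantile normalization (limma adjusted p = 0.0260) and with median-ratio scaling (limma adjusted p = 0.0318), and the count of lower genes was 1 without WAT 1, WAT 2 or WAT 4.

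Of 11 subunits of Polycomb repressive complex 2, to which MEG3 RNA has been reported to bind, 3 were higher and 8 not called, with a median log2 difference of 0.13. For this list and the next, the shares over all rows were 18.9% higher and 27.0% lower. Mtf2 averaged 15.9 ± 1.39 and 10.9 ± 0.900 FPKM in LPS and WAT (limma adjusted p = 0.000842), Rbbp4 49.7 ± 5.24 and 39.6 ± 2.77 FPKM (limma adjusted p = 0.0211) and Aebp2, not called, 36.1 ± 6.30 and 35.8 ± 4.49 FPKM. The count of higher genes was 1 without WAT 2, WAT 3 or WAT 4, where Rbbp4 was no longer called (limma adjusted p between 0.0509 and 0.0815), and 1 gene was called lower without LPS 4. Of 12 genes of miRNA and C/D box small nucleolar RNA processing, 2 were higher and 10 not called (median log2 difference 0.10): Ago3, an Argonaute (19.2 ± 4.06 and 11.5 ± 1.28 FPKM in LPS and WAT, limma adjusted p = 0.00331), and Xpo5, the exporter of miRNA precursors (12.1 ± 1.09 and 9.95 ± 0.640 FPKM, limma adjusted p = 0.0440). Nhp2l1, a core protein of these nucleolar particles, was not called (35.1 ± 8.37 and 30.5 ± 2.59 FPKM). The count was 1 without any 1 library other than LPS 5 and LPS 7, and Xpo5 was then not called.

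Relatives of Rtl1 that also derive from retrotransposon gag genes were higher where they passed the filter and were called. Of 6 tested, 2 were higher and 4 not called, with a median log2 difference of 1.04, against 18.9% higher and 27.0% lower over all rows. Of 10 relatives in the table, the other 4 failed the filter, and 3 of these had lower means in LPS. Zcchc5 averaged 0.0628 FPKM in LPS and 1.48 FPKM in WAT, Rgag1 0.0215 and 0.668 FPKM, and Ldoc1 0 and 0.0585 FPKM. Zcchc16 was at 0 in every library. Rgag4 averaged 10.4 ± 6.14 and 1.57 ± 0.193 FPKM in LPS and WAT (limma adjusted p = 0.000314), and Cxx1c 14.1 ± 3.23 and 4.00 ± 0.459 FPKM (limma adjusted p = 2.10e-05). Peg10, given above, was the most abundant gene of this list that was not called. Without LPS 7 the count of higher genes was 4, and 1 gene was called lower without LPS 2.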

How the data were processed

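RNA was measured in 8 LPS and 4 WAT libraries made with a stranded total RNA kit after ribosomal RNA depletion, per the labels' protocols. The authors deposited FPKM values in 1 table of 37750 rows, 828 of them with joined names. Cuffdiff 2.2.1, Cufflinks 2.2.1, TopHat2 2.1.0, Bowtie2 and Trimmomatic, with build GRCm38, are named without role or order in the submitters' processing notes. No source used here says whether libraries were scaled further. Cufflinks-type tools divide fragments among overlapping transcripts, which bears on the joined rows and on Gm26945 inside Rian.

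From these values, log2(FPKM + 1) was fitted in limma 3.58.1 (R 4.3.3; trend and robust empirical Bayes, two-sided, Benjamini-Hochberg adjusted p under 0.05) for LPS against WAT, over rows that reached 1 FPKM in 4 or more of 12 libraries, and for age within LPS, over rows that did so in 4 or more of 8. This scale shrinks differences of genes near 1 FPKM. The fit was tested on simulated data. Counts were not recovered, so no counting interval is given. Members, gene lists and markers were chosen with earlier results of these data known. Named genes were all members, the 2 largest called differences each way and the most abundant gene not called in each list, joined rows aside, and the 5 rows most like each member. Igf2, H19, Sgce, Plagl1, Dio2, Ppp2r5c, Gm10800 and the library LPS 5 were chosen once their values had been seen. Alternatives were another pseudocount, scaling or filter, plain empirical Bayes, a replicate block and leaving out each library. Table starts were counted from 1, gene positions come from GENCODE M21 and sequences from RefSeq GRCm38.p6. Python 3.11.15 with scipy 1.17.1 and matplotlib 3.10.9 was used for the rest.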

Additional observations from a re-analysis of the deposited data

How the results depend on the processing

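The members' log2 differences kept their direction under all settings run and moved by less than the residual SD, the spread of single libraries within a group. That yardstick is wide: the difference for Meg3 ran from 1.34 without LPS 2 to 2.42 without LPS 3. Since this contrast chose the members, nothing is read from the kept direction. Dio3 failed the filter and has no alternative values. The pseudocount of 0.1 moved r to 0.983 for Meg3 and Mirg, 0.990 for Rian and Mirg and 0.994 for Rian and Rtl1, and the SD of Rtl1 to 2.29; quantile normalization moved r of Rian and Mirg to 0.974. SDs under other settings were added after the data were seen. Leaving out 1 tumour gave r of 0.691 to 0.933 for Dlk1 and Meg3, 0.706 to 0.942 for Dlk1 and Rian, 0.978 to 0.997 for Meg3 and Rian, 0.965 to 0.999 for Meg3 and Rtl1 and 0.979 to 0.983 for Rian and Mirg, and SDs of 1.23 to 2.58 for Meg3 and 1.48 to 2.89 for Rian. The age fit called 0 rows under every setting.

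Same-numbered libraries showed little shared deviation from their group means (r of -0.017, 0.017, 0.092 and 0.033 for replicates 1 to 4). LPS 2 and LPS 3 deviated most like the fat library of the same number, and LPS 1 and LPS 4 did not. Low r cannot exclude a shared litter or batch, so whether the numbers pair the samples was not settled. Tumours without a same-numbered fat library carry no weight in the group difference of a fit with the replicate block. That fit therefore compares LPS 1 to LPS 4 with the 4 WAT libraries. With the replicate block, counts moved to 3 paternal genes higher, 3 maternal genes lower, 2 neighbours lower, 7 imprint control genes higher, 1 Polycomb gene higher, 3 DLK1 partners lower and 4 gag genes higher. Quantile normalization gave 3 paternal and 5 imprint control genes higher. Leaving out 1 library gave 1 to 3 paternal genes higher and 3 to 7 lower, 2 to 5 maternal genes lower, 1 to 3 imprint control genes lower, 1 to 4 Polycomb genes higher and 0 to 1 lower, 1 to 3 small RNA processing genes higher, 3 to 5 DLK1 partners lower, and 2 to 4 gag genes higher and 0 to 1 lower. The cause was not tested.

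With the block, Peg10 (log2 difference 4.00, limma adjusted p = 0.000303), Sgce (0.0440) and Ehmt2 (0.0268) were called, and Aff3 (0.198), Rbbp4 (0.0785), Xpo5 (0.0577) and Dner (0.138) were not. The tumours low for Peg10 and Sgce carried no weight in that fit.

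Sign changes occurred only in named genes that were not called as reported. Sgce (-0.26) went to 0.56 with the block, Gnas (-0.04) to 0.47 with quantile normalization, 0.034 with median-ratio scaling and 0.17 with the block, Hsp90aa1 (-0.14) to 0.024 and Ncor1 (-0.07) to 0.11 with quantile normalization, and Aebp2 (0.005) to -0.012 with the block. Without 1 library the values ran from -0.48 to 0.22 for Sgce, from -0.13 to 0.081 for Gnas and from -0.062 to 0.083 for Aebp2.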

Other observations

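No library stood far enough from the rest of its group to pass the Dixon criterion in the 20 combinations of quantity and group that were examined. Members were examined as log2(FPKM + 1) and ratios as log2. LPS 3 at Meg3 came close, with a gap of 0.523 of the range against a critical value of 0.526. A gap so near that value can fall on either side of it with another pseudocount, which was not tested. It therefore does not settle whether LPS 3 is an outlier. Abca8a, a lipid transporter gene and the row most like Dlk1 over the tumours, differed from Dlk1 between the groups: it read 0.627 FPKM in LPS 3 and between 2.50 and 38.3 FPKM in each other tumour, against 14.7 to 29.7 FPKM in WAT. Tram1l1, the next most like Dlk1, was 0.0875 FPKM in LPS 3 and between 1.21 and 5.96 FPKM in each other tumour, against 0.0566 to 0.183 FPKM in WAT. Timm13, a mitochondrial import gene among the rows most like Meg3, Mirg and Rtl1, ranged only from 18.8 to 33.2 FPKM in LPS and was 42.8 to 57.8 FPKM in WAT, and P2rx1, an ATP-gated channel gene most like Meg3, was 0.202 to 1.43 FPKM in LPS and 1.68 to 2.56 FPKM in WAT.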
